A study of Mus musculus with 26 samples.

Results

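The cytosolic ribosomal protein genes are the genes for the proteins that build the small and the large subunit of the ribosome in the cytoplasm. They were taken by symbol: Rps or Rpl with a number, together with the stalk genes Rplp0, Rplp1 and Rplp2 and the small-subunit gene Rpsa. Kinases of the Rps6k family, Rps19bp1 and entries with the pseudogene suffix -ps were left out. The rule found 88 genes among 24848 in the tables, 34 of the small and 54 of the large subunit, and no expression value was used to choose them. Of these, 86 passed the filter on low counts and were tested among 13500 genes. The other two were Rpl10l, at 0 counts in all 26 libraries, and Rpl3l, with 17 counts in 6 libraries. The annotation lists 3 of the 88 as pseudogenes rather than protein-coding genes (Rps4l, Rpl32l and Rpl37rt).

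All mice were C57BL/6 and were sampled on day 14 of EAE (experimental autoimmune encephalomyelitis), an immune attack on the central nervous system (CNS) used to model multiple sclerosis. Regulatory T cells (Treg, sorted as CD4+Foxp3+) and conventional T cells (Tconv, CD4+Foxp3-) were taken from the CNS and from the draining lymph node (dLN). Control mice (Ctrl) carried Foxp3Cre-ERT2, and icKO mice carried Foxp3Cre-ERT2 with Tnfrsf1bFlox/Flox, the floxed gene of the TNF receptor TNFR2. Both genotypes received tamoxifen from day 7 to day 14, so Cre and drug are shared by all groups. Cre-ERT2 is expressed from the Foxp3 locus, so deletion is aimed at Foxp3+ cells, and Tconv cells of icKO mice are not the cells in which it is directed. There were 3 libraries for each Treg group, 4 for each CNS Tconv group and 3 for each dLN Tconv group. The labels call each library a mouse replicate and do not say whether animals were pooled, so the p-values measure the spread between these libraries.

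Some libraries stood apart or went against their labels. Replicate 3 of icKO dLN Tconv had 6005 genes above 0 and resembled no other library: its best rank correlation was 0.700, where the remaining libraries each reached 0.944 or more. It was left out of the main fit, which leaves 2 libraries in that group, and values with all 26 libraries are given beside the results. The other 25 libraries held 12422708 to 18527627 counts, where it held 7775649, and 11089 to 14259 genes above 0. In 5 CNS Tconv libraries (Ctrl replicates 3 and 4 and icKO replicates 2, 3 and 4) the deposited file names carry the other genotype than the labels. Groups follow the labels throughout, and results that rest on CNS Tconv are also given without these 5, which leaves 2 Ctrl libraries and 1 icKO library.

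The targeted gene, Tnfrsf1b, was read in CPM, a library's counts scaled to the same total by trimmed-mean factors. It was at 610 ± 137 CPM (SD, n = 3) in Ctrl and 406 ± 89.6 (n = 3) in icKO CNS Treg, and at 795 ± 60.5 and 619 ± 1.2 in dLN Treg, so transcript remained in the icKO libraries. The labels do not say which exons are deleted. In CNS Tconv the values were 208 ± 25.9 CPM (n = 4) in Ctrl and 343 ± 51.9 (n = 4) in icKO. Foxp3 lay at 23.8 to 69.4 CPM in Treg libraries and at 0.114 to 1.53 CPM in Tconv libraries. Markers of other cells were present too. The summed level of 10 monocyte and macrophage genes was 3384 to 5606 CPM in the 6 CNS Treg libraries and 6.35 to 806 CPM in the other 19, and 6 microglia genes summed to 1655 to 2258 CPM against 84.6 to 423 CPM, with no gene of the first list at 0 throughout a group and 1 or 2 of the second at 0 in the dLN groups. The 10 genes of the naive T cell list summed to 8091 to 9328 CPM in dLN Tconv, 6051 to 7102 in Ctrl CNS Tconv, 2710 to 3960 in icKO CNS Tconv and 2578 to 3968 in Treg libraries.

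Ribosomal proteins are made in near-equal numbers and assemble with ribosomal RNA in the nucleolus, so their genes are usually expressed together. Their messenger RNAs are short, abundant and long-lived. Most begin with a C followed by a run of pyrimidines, the terminal oligopyrimidine (TOP) motif, through which the kinase complex mTORC1 controls their translation. Activated T cells build many ribosomes as they grow, while resting naive T cells keep a large store of ribosomal protein messages that are translated slowly. Messages were measured here, and translation was not.

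The start of the transcript is shown because the TOP motif lies there. The lines below were picked from the 19 of 67 members with a match, so most members are not like them. In Rpl35 the marked match lies wholly before the annotated start. Each line holds 15 bases before to 15 bases after a start annotated by RefSeq, on the gene's own strand and 5′ to 3′, and capitals mark the first match to CTTTC or to CTTTT.
Rpl35: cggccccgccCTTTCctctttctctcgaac
Rplp2: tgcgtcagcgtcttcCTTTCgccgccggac
Rpl38: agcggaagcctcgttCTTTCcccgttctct
Rps6: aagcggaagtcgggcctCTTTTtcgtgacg
Rps27rt: agaacttatcccttgCTTTCcggcggtgac
Rps12: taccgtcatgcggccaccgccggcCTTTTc
In build GRCm38.p6 these windows are chr2:39005117-39005146 (minus strand), chr7:141447636-141447665 (plus), chr11:114668565-114668594 (plus), chr4:86857353-86857382 (minus), chr9:114982725-114982754 (minus) and chr10:23787195-23787224 (minus). Of the 88 genes, 67 had an entry in the promoter table. Within 10 bases before to 15 after the start, on the sense strand, CTTTC stood in 16 of the 67 (23.9%) and in 994 of 27025 genes of the table (3.68%). CTTTT stood in 5 of the 67 (7.46%) against 3.02% of all, and either motif in 19 (28.4%) against 6.51%. A match is a string of letters near an annotated start and not a mapped start site.

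A second pair of sequences shows why 1 gene has to be read with its copies. Rps27 encodes a zinc-binding protein of the small subunit. Its coding sequence (GRCm38 chr3:90212725-90213615, minus strand, 4 coding parts) is identical over all 255 bases to that of the single-exon copy Rps27rt (chr9:114982453-114982707, minus, 1 part), so coding reads cannot be told apart. The divergent copy Rps27l (chr9:66946175-66949357, plus, 4 parts), a known target of p53, matches it at 194 of 255 bases. Capitals mark the 61 bases that differ.
Rps27: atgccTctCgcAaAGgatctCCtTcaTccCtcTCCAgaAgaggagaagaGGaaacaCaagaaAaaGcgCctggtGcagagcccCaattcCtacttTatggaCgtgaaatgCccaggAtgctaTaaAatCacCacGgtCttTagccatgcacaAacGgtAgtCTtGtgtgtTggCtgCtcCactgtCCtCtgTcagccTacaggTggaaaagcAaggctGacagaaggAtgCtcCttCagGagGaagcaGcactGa
Rps27l: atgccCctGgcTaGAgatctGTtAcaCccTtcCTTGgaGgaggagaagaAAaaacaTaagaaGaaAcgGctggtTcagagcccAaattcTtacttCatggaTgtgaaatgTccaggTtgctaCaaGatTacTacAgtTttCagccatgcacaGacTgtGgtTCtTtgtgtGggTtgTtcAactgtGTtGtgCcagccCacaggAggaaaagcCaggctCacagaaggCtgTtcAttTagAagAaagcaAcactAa
The row named Rps27rt held 83.9% to 98.4% of the summed CPM of the identical copies in the 25 libraries, with a median of 92.9%, and that split is a decision of the counting. Values of Rps27rt below therefore stand for the pair, and the fit with both rows summed is given where it matters. By the same comparison Rpl36al matched 87.9% of the coding bases of Rpl36a, Rpl22l1 66.9% of Rpl22, Rps4l 79.0% of Rps4x, Rpl32l 95.1% of Rpl32 and Rpl37rt 99.7% of Rpl37.

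Levels per length were read from the authors' TPM. The highest mean TPM over the 25 libraries was 8995 for Rps27rt, followed by Rpl32 (5823), Rps19 (5492), Rps29 (4904) and Rps14 (4202). The lowest tested members were Rpl7l1 (95.0), a paralogue of Rpl7 that works in ribosome assembly, and the copies Rpl37rt (42.9), Rps4l (11.3), Rpl32l (7.17) and Rpl39l (2.4). In all, 54 members had a mean TPM above 1000, and between 28 and 68 of them stood among the 200 highest genes of a library. The members have a median length of 693.5 bases, against 2777 for all tested genes.

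The share of all counts that fell on the 88 genes gives the overall picture. In CNS Treg it was 2.62% ± 0.57 (SD, n = 3) in Ctrl and 3.24% ± 0.30 (n = 3) in icKO. In dLN Treg it was 4.60% ± 0.18 and 4.63% ± 0.28 (n = 3 each). CNS Tconv held 4.90% ± 0.32 in Ctrl and 3.60% ± 0.66 in icKO (n = 4 each), and dLN Tconv 6.28% ± 0.97 in Ctrl (n = 3) and 6.40% ± 0.40 in icKO (n = 2). CNS Treg libraries, from 1.97% to 3.47%, lay below all dLN libraries, from 4.37% to 6.85%, without overlap. So did the icKO CNS Tconv libraries, from 2.84% to 4.17%. The library left out held 4.93%, and without the 5 libraries with conflicting names CNS Tconv held 4.85% in Ctrl (n = 2) and 4.17% in icKO (n = 1). These are shares of a library: in bulk samples fewer cells of a type and less RNA per cell cannot be told apart, and the amount of ribosomal protein message per cell was not measured.

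**Figure D1:**
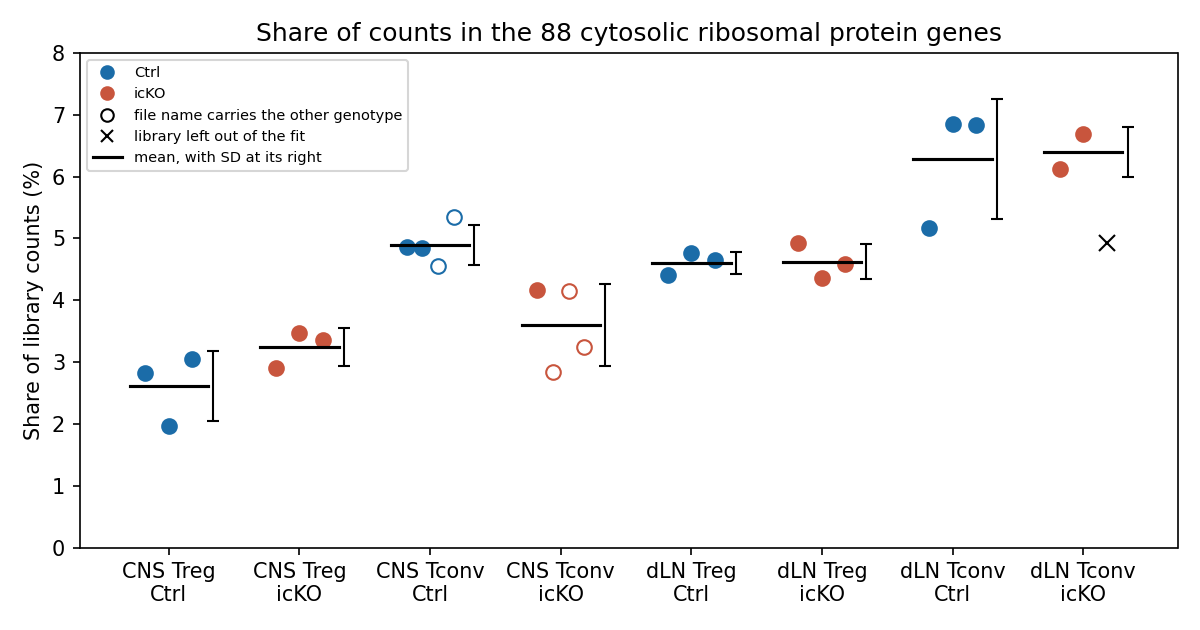
Share of library counts (%, y axis) on the 88 ribosomal protein genes in the 8 groups (x axis), 1 point per library, with the mean as a bar and the SD at its right. The CNS Treg points (1.97% to 3.47%) and the icKO CNS Tconv points (2.84% to 4.17%) lie below all dLN points. The open circles are the 5 CNS Tconv libraries whose file names carry the other genotype.

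Gene by gene, 81 of the 86 tested members had their lowest group mean in Ctrl CNS Treg, and 79 had their highest in dLN Tconv, 15 in Ctrl and 64 in icKO. The ratio of the highest to the lowest group mean had a median of 2.45 over the members. It was largest for Rps4l (10.9), Rps27 (4.86), Rpl12 (3.95), Rps20 (3.67) and Rps24 (3.51). It was smallest for Rpl36al (1.44), Rpl7l1 (1.5), Rpl26 and Rpl38 (1.78 each) and Rpl4 (1.85). The value of the Rps27 row rests on how the counting split reads with its identical copy Rps27rt.

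Treg cells of the CNS were set against those of the lymph node first in Ctrl mice. Of the 86 members, 76 were lower in CNS Treg and 1 higher by edgeR's quasi-likelihood test at a Benjamini-Hochberg adjusted p under 0.05 over all genes (members past this are called below). Among all tested genes 8.55% were called lower and 13.3% higher. Members are measured in the same libraries and can move together, so counts of members here and below are not independent. The members' median log2 fold change was -0.78, against 0.02 for all genes. The small subunit had 31 of 34 members lower (median -0.86) and the large 45 of 52 (median -0.75). The groups did not overlap, with CNS Treg lower, for 80 members, against 20.2% of all genes.

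Rps12, a small-subunit protein, had the largest called fall. Its CPM was 105, 76.4 and 152 in Ctrl CNS Treg and 263, 286 and 309 in Ctrl dLN Treg. The groups lay apart, with a log2 fold change of -1.36 (SE 0.24, adjusted p = 0.000486). Next came Rpl36a (-1.28), Rpl22l1 (-1.24), Rpl12 (-1.23), which sits at the base of the stalk, Rps20 (-1.18) and Rps27a (-1.18), whose product is a fusion of ubiquitin with a ribosomal protein.

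The stalk proteins recruit elongation factors to the ribosome, and all 3 were lower. Rplp0, their anchor, was at 1139, 827 and 1121 CPM in CNS and at 1731, 1794 and 1782 in dLN, a log2 fold change of -0.78 (SE 0.15, adjusted p = 0.000991). Every CNS value was below every dLN value. Rplp2 (-0.84) and Rplp1 (-0.73) followed. Rpl5 (-0.81) and Rpl11 (-0.92), which bind the p53 regulator Mdm2 when outside the ribosome, also fell. So did Rpsa (-1.08), Rps3 (-0.77), Rpl38 (-0.60), Rps6 (-0.46), the substrate of the S6 kinases, and Rps19 (-0.45), which is mutated in Diamond-Blackfan anaemia.

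In all, 9 members were not called in this comparison. Rpl35, which lies at the exit tunnel of the large subunit, was at 305, 239 and 295 CPM in CNS Treg and 309, 322 and 332 in dLN Treg (log2 fold change -0.20, SE 0.14, adjusted p = 0.324). Rpl13 (-0.21) and Rpl13a (-0.21), the latter also known for silencing inflammatory messages outside the ribosome, had values of the same size, and Rps27rt was at -0.41 (adjusted p = 0.111). The others were Rpl7l1 (-0.23), Rpl37rt (-0.64), Rps27 (0.94), Rpl32l and Rpl39l.

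In icKO mice the same tissue comparison called 38 members lower and 0 higher, against 9.41% and 13.1% of all genes, with a median of -0.48 over the members. At an unadjusted p under 0.05 there were 58 members, beside 35.8% of all genes, and DESeq2 called 42 lower (10.9% of all genes) and 1 higher. Rpl36a (-0.92, SE 0.22, adjusted p = 0.0049), Rps26 (-0.91), Rps12 (-0.88), Rpl22l1 (-0.85), Rps20 (-0.85), Rpl26 (-0.83) and Rpsa (-0.74) were among them. Rplp0 fell by 0.52 on the log2 scale (adjusted p = 0.0154), while Rplp1 (-0.37, adjusted p = 0.0877) and Rplp2 (-0.44, adjusted p = 0.0656) were not called. The 2 genotypes share no library here, and 37 members were lower in both, 48.7% of the Ctrl list and 97.4% of the icKO list. The Ctrl list holds 76 of the 86 tested members, so most of any list would fall in it. All comparisons come from 1 fit that shares its estimates of each gene's spread. Lists without a common library, here and below, are therefore not independent. With all 26 libraries the counts of lower members were 60 in Ctrl (1.65% of all genes) and 11 in icKO (1.41%). The icKO count was 16 without CNS icKO replicate 1, 18 without CNS icKO replicate 2 and 20 without dLN icKO replicate 1. For fits with 1 library left out, here and below, no share of all genes is given. Such counts cannot show whether a change is particular to the members.

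These tissue comparisons of Treg moved together with other lists. In Ctrl Treg, 9 of 10 monocyte and macrophage genes, 6 of 6 microglia genes and 5 of 6 CD8 T and NK cell genes were called higher in the CNS and 6 of 6 cell-cycle genes lower, and in icKO Treg the counts were 9, 6, 5 and 6. The cell-cycle genes, from Mki67 to Ccna2, summed to 1076 to 1726 CPM in dLN Treg and to 193 to 644 CPM in CNS Treg. Their part in the difference of the ribosomal protein genes was not tested.

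Tconv cells of the CNS against those of the lymph node gave a smaller median in Ctrl mice, -0.30. A single member, Rpl12, was called lower (-0.68, SE 0.20, adjusted p = 0.0344), against 2.93% of all genes called lower and 5.97% higher. Its CPM was 365, 378, 349 and 497 in the CNS and 458, 746 and 706 in the lymph node, so the groups overlapped. At an unadjusted p under 0.05 there were 29 members, beside 25.1% of all genes, and DESeq2 called 7 lower (5.01% of all genes). The count was 10 without CNS Ctrl replicate 4, 8 without dLN Ctrl replicate 1 and 0 without CNS Ctrl replicates 2 or 3 or dLN Ctrl replicate 2. It was 7 without the 5 libraries with conflicting names (8.6% of all genes lower) and 0 with all 26 (1.1% of all genes called).

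In icKO Tconv 70 members were lower in the CNS and 1, Rps4l, higher, against 6.3% and 7.81% of all genes. The members' median was -0.74. Rps20 fell from 901 and 911 CPM in the lymph node to 414, 237, 457 and 296 in the CNS (log2 fold change -1.37, SE 0.23, adjusted p = 0.000308). No CNS value reached the lymph node values. Rpl12 (-1.34), Rpl36a (-1.30), Rps28 (-1.21) and Rps29 (-1.18) followed, and Rps19 was at -0.89 (adjusted p = 0.000209). Without the 5 libraries with conflicting names 1 CNS library remained, the median was -0.51, and Rps20 and Rpl12 were the 2 members called (1.49% of all genes lower). Without dLN icKO replicate 2 there were 25 lower and 1 higher, and with all 26 libraries 47 lower (5.09% of all genes) and 1 higher. Of 10 naive-cell genes 7 were called lower in the CNS in this comparison, and their part in the difference was not tested.

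Whether the tissue difference in Ctrl mice was unlike between Treg and Tconv was tested directly. The test called 2 members, against 2.55% of all genes higher and 1.12% lower. Rpl29 fell more in Treg (difference of log2 fold changes -0.85, SE 0.23, adjusted p = 0.044), and Rps4l had a difference of 2.04 (SE 0.55, adjusted p = 0.0413). Over the members the median difference was -0.51, and 36 had an unadjusted p under 0.05, beside 18.2% of all genes. The count was 8 without CNS Treg Ctrl replicate 3. It was 1 without CNS Tconv Ctrl replicates 1 or 3, dLN Tconv Ctrl replicate 3 or dLN Treg Ctrl replicates 1 or 2, and 0 without CNS Tconv Ctrl replicate 2, dLN Tconv Ctrl replicates 1 or 2, CNS Treg Ctrl replicates 1 or 2 or dLN Treg Ctrl replicate 3. With all 26 libraries it was 0 (0.0919% of all genes called), and without the 5 it was 6 (7.99%).

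Treg against Tconv within the CNS of Ctrl mice gave the largest median of the 12 pairwise comparisons, -0.94. In this comparison 80 members were lower in Treg and 1 higher, against 7.03% and 10.8% of all genes. For 79 members the Treg libraries lay wholly below the Tconv libraries, against 8.53% of all genes. With all 26 libraries 71 were lower (1.71% of all genes) and 0 higher, and without the 5 libraries with conflicting names 78 were lower (7.31%) and 1 higher.

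Rps27rt was at 708, 381 and 619 CPM in Ctrl CNS Treg and at 1539, 1548, 1446 and 1290 in Ctrl CNS Tconv. All Treg values lay below all Tconv values, and the log2 fold change was -1.35 (SE 0.17, adjusted p = 1.57e-05). With Rps27 and Rps27rt summed it was -1.28 (adjusted p = 2.4e-05). Rps24 (-1.34), Rps29 (-1.28), Rps21 (-1.23), Rpl12 (-1.19) and Rps7 (-1.19) came next.

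All 3 stalk genes fell, Rplp2 by 1.08, Rplp1 by 0.94 and Rplp0 by 0.79 on the log2 scale. The Mdm2-binding pair Rpl5 (-0.99) and Rpl11 (-0.97), Rpsa (-0.96), Rps19 (-0.95), Rpl35 (-0.86), Rps3 (-0.85), Rpl38 (-0.83) and Rps6 (-0.83) fell too. Members not called were Rps27l (0.02), Rpl7l1 (0.13), Rps27, Rpl32l and Rpl39l. Beside this, 10 of 10 monocyte and macrophage genes were called higher in Treg and 9 of 10 naive-cell genes lower, and the part of either in the difference was not tested.

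In the CNS of icKO mice the same comparison had a median of -0.15. Leaving out 1 library moved it between -0.06 (Tconv icKO replicate 3) and -0.29 (Tconv icKO replicate 2), with -0.08 without Tconv or Treg icKO replicate 1. Rpl29, a small basic protein of the large subunit, was the 1 member called lower (-0.52, SE 0.16, adjusted p = 0.0367), against 4.2% of all genes lower and 8.38% higher. Its values were 173, 185 and 219 CPM in Treg and 275, 196, 362 and 265 in Tconv, with overlap. In all, 6 of the 86 had an unadjusted p under 0.05, beside 26% of all genes, and DESeq2 called 1 lower and 1 higher (15.1% of all genes called). The call was lost (count 0) without Tconv icKO replicates 1, 3 or 4, without Treg icKO replicates 1 or 2, with all 26 libraries (3.42% of all genes called) and without the 5 with conflicting names (4.13%), where the median was -0.38. Without Tconv icKO replicate 2 the count was 2.

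In the lymph node Treg were also lower than Tconv. Ctrl mice had 30 members lower and 1 higher, against 5.48% and 6.04% of all genes, with a median of -0.45. In icKO mice 25 were lower and 2 higher, against 4.47% and 5.44%, with a median of -0.48. The 2 comparisons share no library, and 23 members were lower in both, 76.7% of the Ctrl list and 92.0% of the icKO list. These 23 include Rps27rt, Rps19, Rps24, Rps6, Rps25, Rplp1, Rpl9, Rpl13, Rpl13a, Rpl14, Rpl32 and Rpl35.

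Rps27rt was at 718, 795 and 749 CPM in Ctrl dLN Treg and at 1337, 1817 and 1753 in Ctrl dLN Tconv. The groups lay apart (log2 fold change -1.12, SE 0.18, adjusted p = 0.000253), as they did in icKO, with 801, 692 and 729 against 1594 and 1774 (-1.18, adjusted p = 0.00043). With the copies summed the values were -1.19 and -1.16. Rps19 was at -0.78 in Ctrl and -0.83 in icKO, Rpl13 at -0.76 and -0.70, and Rpl35 at -0.74 and -0.69.

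Several members that fell between tissues in Treg were not called between cell types in the Ctrl lymph node. Rps12 was at 263, 286 and 309 CPM in Ctrl dLN Treg and 246, 342 and 361 in Ctrl dLN Tconv, with overlap (-0.15, adjusted p = 0.789). Rpl22l1 (0.03, adjusted p = 0.971), Rpsa (-0.33) and Rplp0 (-0.24) were not called either. In the pair of comparisons with no common library, icKO Treg by tissue and Ctrl lymph node by cell type, the lists of 38 and 30 lower members shared 3, which is 7.89% and 10% of the lists. In the other such pair, Ctrl Treg by tissue and icKO lymph node by cell type, lists of 76 and 25 shared 21, which is 27.6% and 84.0%. The list of 76 holds most of the 86 tested members, so most of any list would fall in it.

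The lymph node counts moved when single libraries were left out, and whether this is particular to the members cannot be told from them. In Ctrl the count called was 40 without Tconv replicate 1, 9 without Tconv replicate 2 or Treg replicate 1, 10 without Tconv replicate 3, 11 without Treg replicate 3 and 19 without Treg replicate 2, and 6 with all 26 libraries (0.873% of all genes lower). In icKO it was 3 without either Tconv library, 5, 7 and 10 without Treg replicates 2, 3 and 1, and 7 with all 26 libraries (3.95% of all genes called). In both genotypes 9 of 10 naive-cell genes were called lower in dLN Treg and 6 of 6 cell-cycle genes higher, and their part was not tested.

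**Figure D2:**
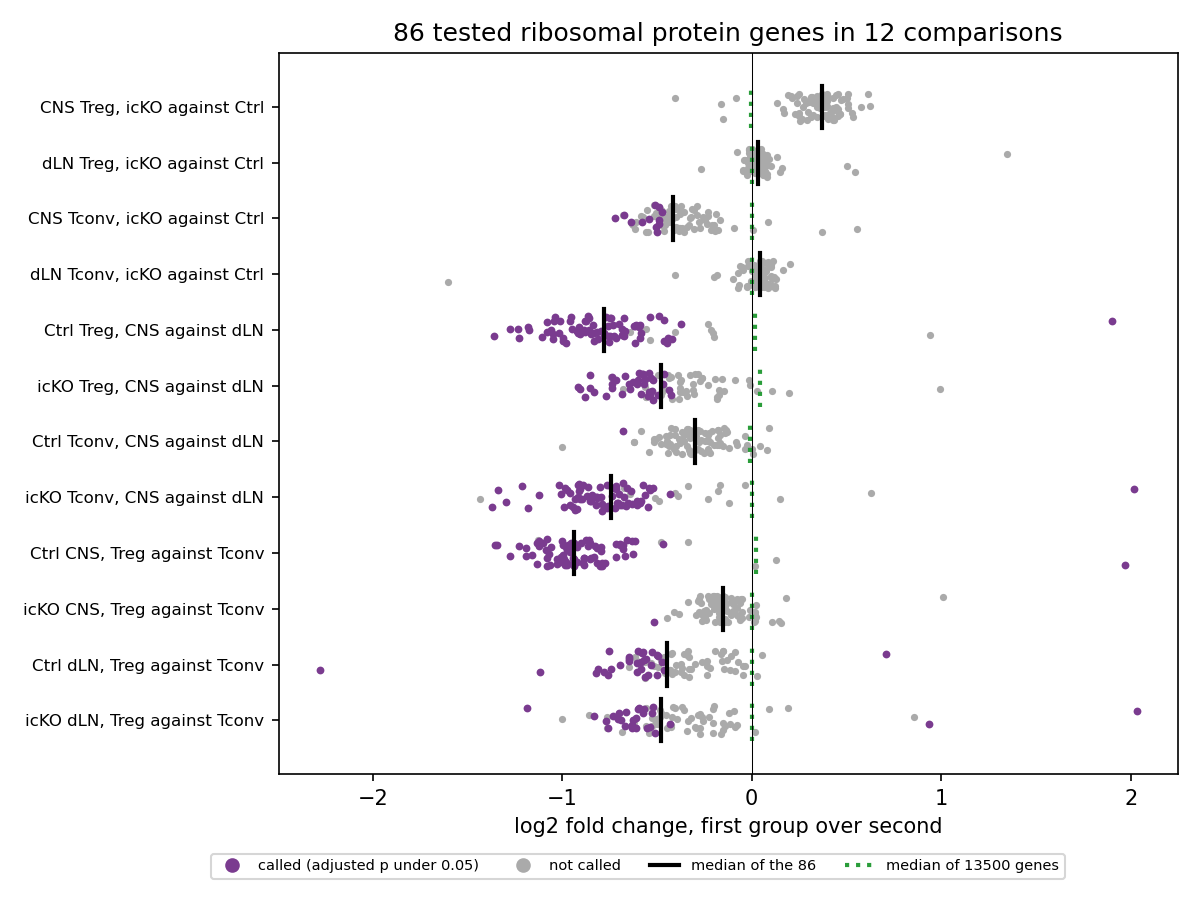
Log2 fold change (x axis) of the 86 tested members in the 12 pairwise comparisons (y axis), purple where called, with the members' median as a black bar and the median of 13500 genes as a dotted green line. The cloud lies left of 0 in each comparison of CNS with dLN and of Treg with Tconv, near 0 for genotype in the lymph node, and on opposite sides of 0 for genotype in CNS Treg (median 0.37) and CNS Tconv (median -0.42).

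**Figure D3:**
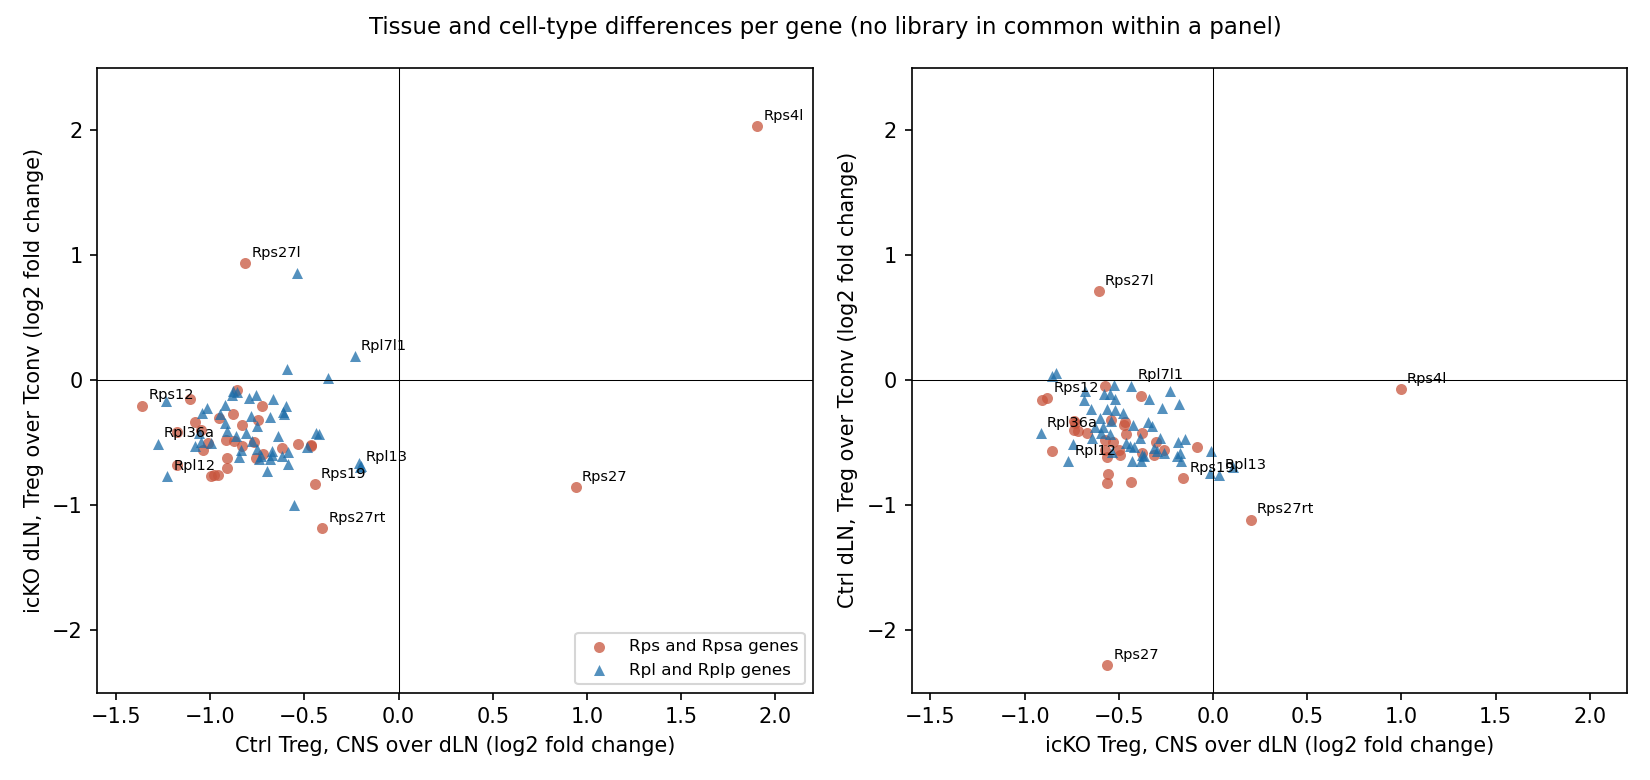
Each point is 1 member, with its log2 fold change between tissues in Treg on the x axis and between Treg and Tconv in the lymph node on the y axis, with no library in common within a panel. Rps12 and Rpl36a lie far left at small y values, and Rps27rt lies low, with x at -0.41 in the left panel and 0.20 in the right.

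The question of the study's design is what loss of TNFR2 in Treg cells changes. Between icKO and Ctrl CNS Treg, 0 members were called by edgeR, where 0.0% of all genes were called in either direction, and 0 by DESeq2 (0.0519% of all genes). At an unadjusted p under 0.05 there were 48 of the 86 members, against 6.78% of all genes. The median was 0.37, with 82 of 86 values above 0, and the smallest adjusted p was 0.627. Members can move together within a library, so these counts are not 86 separate results. The members' share of counts overlapped between the groups, at 1.97% to 3.06% in Ctrl and 2.90% to 3.47% in icKO. For 25 members the icKO libraries all lay above the Ctrl libraries, against 3.99% of all genes. Rps27rt was one of them, at 781, 908 and 863 CPM in icKO and 708, 381 and 619 in Ctrl (0.58, SE 0.18, adjusted p = 0.627). Rps24 (0.61), Rpl9 (0.54), Rps13 (0.51) and Rps14 (0.42) had the next smallest p-values. Ctrl replicate 2 was the lowest of its group in all 4 of Rps27rt, Rps24, Rplp0 and Rps12, and without it the members' median was 0.23. Leaving out the other libraries gave medians of 0.29 to 0.49. The 6 CD8 T and NK cell genes summed to 159 to 218 CPM in Ctrl and 322 to 711 CPM in icKO CNS Treg, without overlap, and their part in the members' difference was not tested.

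In dLN Treg the icKO and Ctrl libraries were close. The count was 0 by edgeR and 0 by DESeq2 (0.0148% of all genes), and 0.0% of all genes were called by edgeR. At an unadjusted p under 0.05 there was 1 member, Rps27. With Rps27 and Rps27rt summed the log2 fold change was 0.07 (edgeR, unadjusted p = 0.714). The members' median was 0.03. Rplp0 was at 1865, 1773 and 1879 CPM in icKO and 1731, 1794 and 1782 in Ctrl, a difference within the spread (0.06, adjusted p = 1). In dLN Tconv the count was also 0 by both tools, with 0.0% of all genes called by edgeR and 0.0148% by DESeq2, 1 member, Rps4l, at an unadjusted p under 0.05, and a median of 0.04. With all 26 libraries that median was -0.12, where the median of all genes was -0.36.

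In CNS Tconv, the cells not aimed at by the deletion, 12 members were lower in icKO and 0 higher, against 1.53% and 1.58% of all genes. The median was -0.42, 59 members had an unadjusted p under 0.05, against 18.1% of all genes, and DESeq2 called 36 lower (3.3% of all genes), the 12 among them. For 37 members the icKO libraries lay wholly below Ctrl, against 3.61% of all genes.

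Rpl35 had the smallest adjusted p. It was at 635, 523, 430 and 446 CPM in Ctrl and 363, 310, 315 and 285 in icKO, with a log2 fold change of -0.68 (SE 0.12, adjusted p = 0.00488). The highest icKO value lay below the lowest Ctrl value. Rps27rt was at 1539, 1548, 1446 and 1290 in Ctrl and 1025, 632, 972 and 899 in icKO (-0.72, SE 0.16, adjusted p = 0.0151), and -0.71 with its copies summed (adjusted p = 0.0154). The others were Rpl13 (-0.64), Rps19 (-0.58), Rpl32 (-0.54), Rpl14 (-0.51), Rps9 (-0.50), Rps25 (-0.50), Rpl5 (-0.49), Rps6 (-0.49), Rplp1 (-0.49) and Rpl3 (-0.48). Of the stalk, Rplp1 was called, and Rplp2 (-0.49, adjusted p = 0.0727) and Rplp0 (-0.27, adjusted p = 0.269) were not. Rps12 (-0.38), Rpsa (-0.30), Rps3 (-0.31) and Rpl22 (-0.31) were not called.

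This result depends on which libraries are used. Without the 5 with conflicting names the count was 0 (1.12% of all genes called) and the median -0.21, with Rpl35 at -0.66 (adjusted p = 0.0934), and with all 26 libraries Rpl35 was the 1 member called (0.0536% of all genes lower). Without 1 library at a time the count was 3 (icKO replicate 4), 4 (icKO replicate 2 or Ctrl replicate 1) or 5 (icKO replicate 3 or Ctrl replicate 2), and up to 10 otherwise. Of 10 naive-cell genes 8 fell in the same comparison, with a list median of -1.06 and summed levels that did not overlap (6051 to 7102 CPM in Ctrl, 2710 to 3960 in icKO). The 5 Treg genes of the marker list summed to 409 to 530 CPM in Ctrl and 555 to 814 CPM in icKO, without overlap. Of the 5, 1 was called higher. Foxp3, also on that list, had the lower mean in icKO, at 0.30 ± 0.13 CPM against 0.88 ± 0.48 in Ctrl (n = 4 each), with overlap. The part of either list in the change was not tested. Of the 12 members, 11 were also lower in Treg than Tconv in the Ctrl lymph node and 10 in the icKO lymph node. Those comparisons were made on other libraries, and the shared members are 36.7% and 40.0% of their lists. The lists hold 30 and 25 of the 86 tested members. All comparisons share the fit's estimates of each gene's spread, so the overlap is not independent.

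The genotype effect in CNS Tconv was then set against that in CNS Treg. The difference had a median of -0.80 over the members, with 85 of 86 below 0 and 74 at an unadjusted p under 0.05, beside 15% of all genes. A single member was called, Rps27rt (-1.30, SE 0.24, adjusted p = 0.0279), against 0.111% of all genes lower and 0.0667% higher, and with its copies summed it was at -1.23 (adjusted p = 0.0309). Rpl9 (-1.10), Rps24 (-1.16), Rplp1 (-0.92) and Rps19 (-0.85) each had an adjusted p of 0.0562. DESeq2 called 49 lower (1.88% of all genes). The count was 29 without Treg icKO replicate 1, 16 without Treg Ctrl replicate 3 or Tconv Ctrl replicate 4, 4 without Treg Ctrl replicate 1, and 0 without Treg Ctrl replicate 2, Treg icKO replicate 2, Tconv Ctrl replicate 3 or Tconv icKO replicate 1. It was 0 with all 26 libraries (0.0% of all genes called) and 0 without the 5 (0.503%), where the median was -0.56. Between the tissues, the genotype effect in Tconv had a median difference of -0.47 with 0 members called by edgeR (0.0% of all genes), 0 by DESeq2 (0.563%) and 30 at an unadjusted p under 0.05 (8.16% of all genes). Without the 5 the median was -0.25 with 2 members at an unadjusted p under 0.05, and with all 26 libraries -0.30 with 6.

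Some paralogues had another pattern. Rps27l was called higher in Treg in both lymph node comparisons, with 200, 181 and 246 CPM in Ctrl Treg against 135, 116 and 131 in Ctrl Tconv (0.71, SE 0.17, adjusted p = 0.0087). In icKO it was at 224, 215 and 207 against 110 and 114 (0.94, adjusted p = 0.00324). Neither pair of groups overlapped, and the sign is opposite to that of Rps27rt in the same libraries. In Treg it was lower in the CNS than in the lymph node, by 0.81 in Ctrl and 0.61 in icKO on the log2 scale.

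Rps4l, a retrocopy annotated as a transcribed pseudogene, was the 1 member called higher in Ctrl CNS Treg. It was at 16.1, 13.5 and 9.81 CPM there, 3.32, 2.68, 4.74 and 2.65 in Ctrl CNS Tconv and 5.24, 2.64 and 2.60 in Ctrl dLN Treg, apart from both. The log2 fold change was 1.97 over Tconv (adjusted p = 0.000784) and 1.90 over dLN Treg (adjusted p = 0.00247), and with all 26 libraries the adjusted p was 0.0629 and 0.117. Its parent Rps4x, X-linked, went the other way, at -1.01 between tissues in Ctrl Treg. In icKO mice Rps4l was at 9.59, 10.7 and 9.38 CPM in CNS Treg and not called against CNS Tconv (1.01, adjusted p = 0.0801). It was also called higher in icKO CNS Tconv (2.02) and in icKO dLN Treg (2.03), each against icKO dLN Tconv. In icKO dLN Tconv it was at 1.21 ± 0.287 CPM (n = 2). A CNS rise of Rps4l was thus not confined to Treg.

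Rpl36al varied least of the 86. It ranged from 105 to 178 CPM over the 25 libraries, while Rpl36a ranged from 46.6 to 281 CPM. Between tissues in Ctrl Treg Rpl36al fell by 0.37 (adjusted p = 0.0241) and Rpl36a by 1.28. For Rpl22, which is needed for the development of αβ T cells, and its paralogue Rpl22l1 the falls were 0.95 and 1.24, in the same direction. Rpl7l1 was not called in this comparison (-0.23), while Rpl7 fell by 0.91. Rpl3 (-0.75), Rpl10 (-0.69) and Rpl39 (-1.04) fell as well, and Rpl39l was near the detection limit, at 0.651 ± 0.412 CPM in CNS and 0.950 ± 0.372 in dLN.

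**Figure D4:**
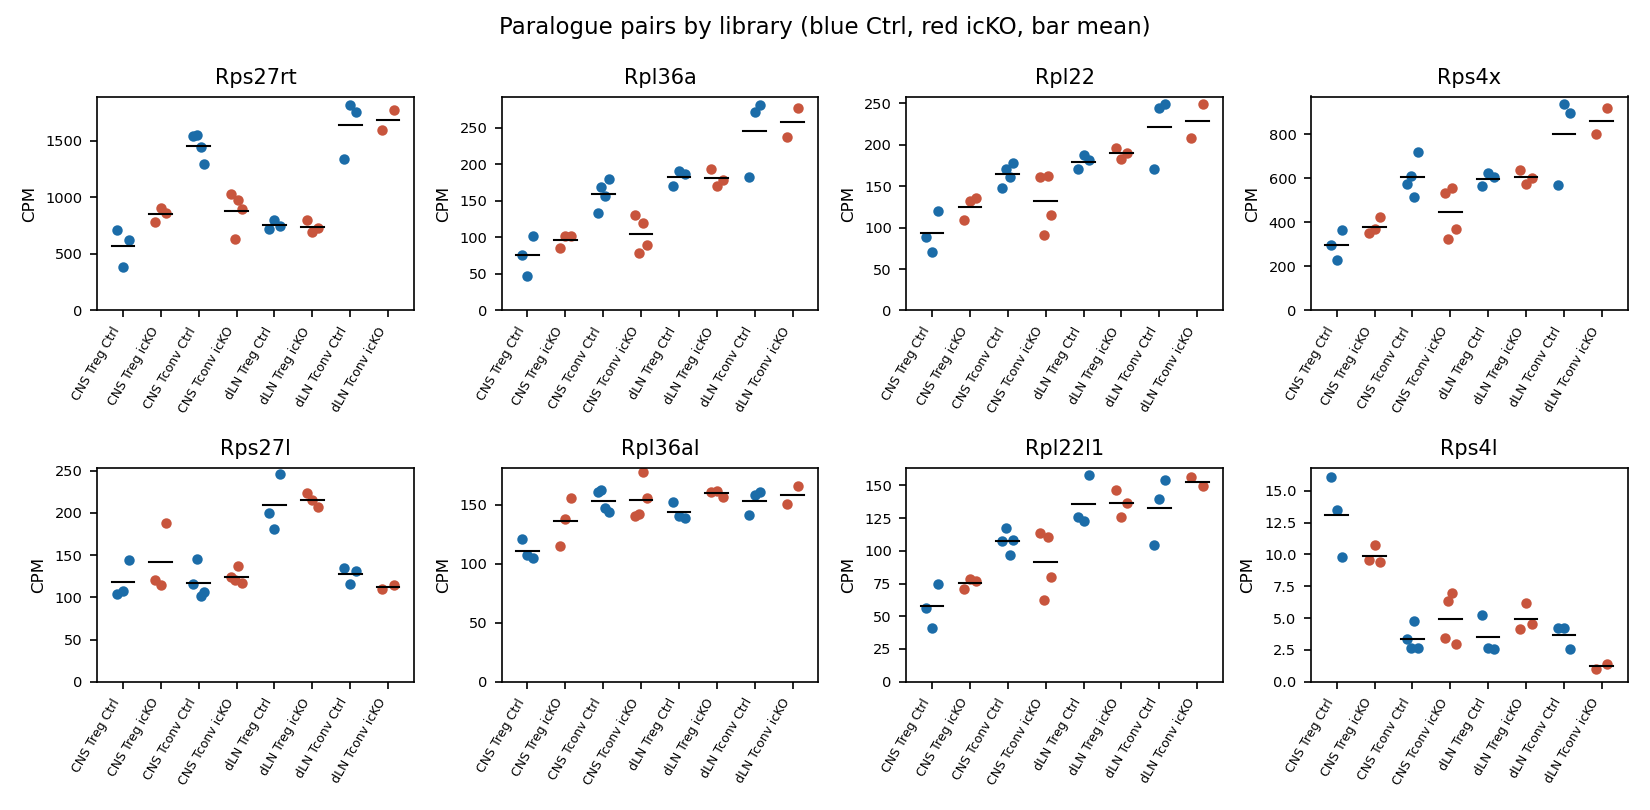
CPM per library (y axis, from 0, scales differ) in the 8 groups (x axis) for 4 genes (top) and a paralogue of each (below), Ctrl in blue and icKO in red, with the mean as a bar. Rps27l is highest in dLN Treg, where Rps27rt lies well under its dLN Tconv level, Rps4l is highest in CNS Treg, and Rpl36al stays between 105 and 178.

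Genes of ribosome production that carry other names were read from lists. Among all tested genes 8.55% were called lower and 13.3% higher in Ctrl Treg by tissue. In Ctrl Treg by tissue, the ribosomal protein Rack1 fell by 0.94 on the log2 scale, and 15 of 18 elongation factors and other TOP genes were lower and 0 higher (median -0.56), among them Pabpc1 (-0.95) and Hnrnpa1 (-1.26). Of 39 ribosome biogenesis factors 18 were lower and 0 higher, among them Npm1, the nucleolar chaperone nucleophosmin, from 763 ± 24.0 to 286 ± 91.2 CPM (n = 3 each), Nop58 (-1.36) and Heatr1 (-1.29). Of 9 genes of RNA polymerase I, which transcribes ribosomal RNA, 3 were lower (Polr1a, Polr1c and Polr1e). Of 78 mitochondrial ribosomal proteins, which serve the separate ribosome of mitochondria, 10 were lower and 0 higher, with a median of -0.18. Eif4ebp1, the translation repressor held off by mTORC1, was the 1 of 19 genes of the mTORC1 and Myc list called higher (1.33, adjusted p = 0.00043), and 3 of that list were lower.

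In icKO Treg by tissue 23 of the 39 biogenesis factors were lower and 0 higher, with Tsr1 (-1.80), Npm1 (-1.35) and Dkc1 (-1.05). Of all genes 9.41% were lower and 13.1% higher. Of the 18 elongation factors and other TOP genes 9 were lower, and of the 9 polymerase genes 5. For the cell-type difference in the lymph node of Ctrl mice these lists had few calls. There 5.48% of all genes were lower and 6.04% higher. Of the 39 biogenesis factors 1 was lower (Nop10) and 1 higher (Nhp2), of the 18 elongation factors and other TOP genes 1 was lower (Tpt1) and 1 higher (Nap1l1), and their medians were -0.03 and -0.09, beside -0.45 for the 86.

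In the CNS of Ctrl mice, Treg against Tconv, 15 of 18 elongation factors and other TOP genes were lower. So were 8 of 39 biogenesis factors, 3 of 9 polymerase genes and 13 of 78 mitochondrial ribosomal proteins, against 7.03% of all genes. For genotype in CNS Tconv 1 of each of 4 lists was lower: Eef1g (-0.41), Nop10 (-0.67, adjusted p = 0.00653), Sesn1 (-1.51), an inhibitor of mTORC1, and Gas5 (-0.66), a snoRNA host whose transcript begins with a TOP motif. In this comparison 1.53% of all genes were lower. The median of the 78 mitochondrial ribosomal proteins was -0.13 there, beside -0.42 for the 86.

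**Figure D5:**
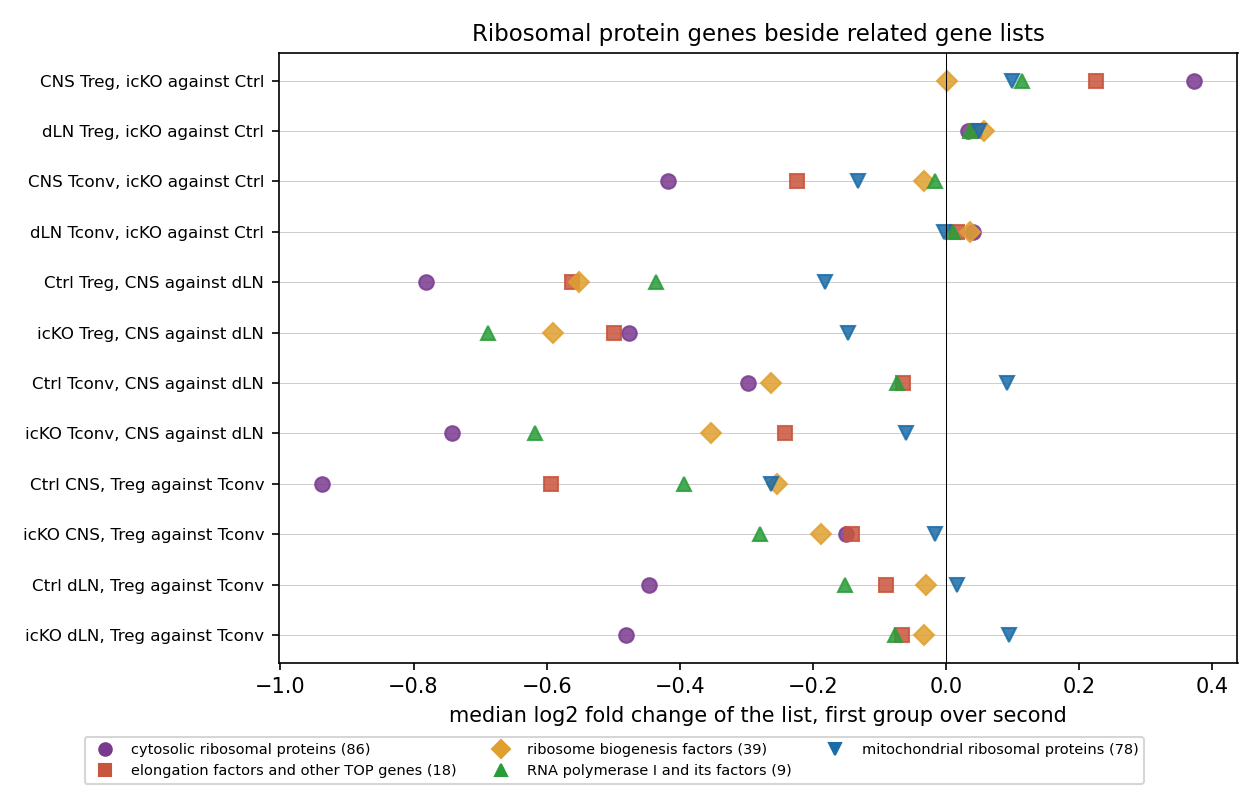
Median log2 fold change (x axis) of the 86 ribosomal protein genes and of 4 related lists (number of genes in brackets) in the 12 pairwise comparisons (y axis). In the lymph node the biogenesis, polymerase and elongation factor lists lie near 0 beside -0.45 and -0.48 for the ribosomal proteins, and in Ctrl Treg by tissue all 5 medians lie below 0.

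Length was looked at because the members are short and the lists above are longer. Of 1032 other tested genes under 1000 bases, the median log2 fold change was -0.03 in Ctrl Treg by tissue, -0.22 in Ctrl CNS by cell type, -0.11 for genotype in CNS Tconv and 0.17 for genotype in CNS Treg. The members' medians in these comparisons were -0.78, -0.94, -0.42 and 0.37. In Ctrl Treg by tissue 10.7% of these short genes were called lower, against 8.55% of all genes. In Ctrl CNS by cell type it was 14.5% against 7.03%, and for genotype in CNS Tconv 2.03% against 1.53%. The short genes were not matched to the members in level of expression, and the part of length was not tested.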

How the data were processed

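RNA of sorted cells was amplified with SMART-Seq v4, a full-length method that does not mark strand, and made into Nextera libraries, per the labels' protocols. Per the submitters' processing notes the tools were FastQC, Trimmomatic, STAR 2.5.3a, RSEM 1.2.28 and build mm10, with other parameters not given in the sources used here. The deposited expected counts were rounded to whole numbers for testing. The deposited TPM values, which the authors computed per length and library, were used for levels between genes, and the deposited FPKM values were not used. RSEM shares reads among near-identical copies by estimate, so rows of such copies are uncertain.

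Counts were fitted with edgeR 4.0.16 in R 4.3.3 (filterByExpr, TMM factors, quasi-likelihood test, a mean for each of 8 groups, 25 libraries, Benjamini-Hochberg adjustment over 13500 genes). CPM are the counts scaled by TMM factors. The log2 fold changes are edgeR's. DESeq2 1.42.0, other scalings and filters, the compared groups alone, the replicate number as a block, all 26 libraries, the fit without 5 libraries and each library left out in turn were alternatives, and summing near-identical copies was chosen after seeing the data. On simulated counts over 13500 genes, 54% of 2-fold changes were recovered for genotype in CNS Treg and 64% for genotype in CNS Tconv, and 10% and 23% of 1.5-fold changes. The members and lists were chosen with earlier results of these data known. Named genes were a fixed set of stalk, signalling and paralogue genes, for each comparison the 6 largest called rises and falls (mean of at least 10 CPM in a group) or, with under 5 called, the 5 smallest p-values, and the 5 highest, lowest, most and least variable; others were chosen after their values were seen. The 7 entries with the suffix -ps held 0.492% to 0.716% of the members' counts. Replicate numbers were not used to pair the libraries in the main fit, and whether they mark shared animals is not known. Start sites and coding sequences came from RefSeq (GRCm38.p6) and the GENCODE annotation of GRCm38. Results that need items withheld for evaluation are not reported here.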

Additional observations from a re-analysis of the deposited data

Results flagged for a closer look

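For 3 members a difference between 2 effects passed its own test. The genotype effect on Rps27rt was lower in CNS Tconv than in CNS Treg by 1.30 on the log2 scale (value -1.30, adjusted p = 0.0279 by edgeR), and the adjusted p was 0.233 with all 26 libraries and 0.0985 without the 5 with conflicting names. The tissue effect in Ctrl mice was higher in Treg than in Tconv for Rps4l (2.04, adjusted p = 0.0413, and 0.545 with all 26 libraries) and lower for Rpl29 (-0.85, adjusted p = 0.044, and 0.229 with all 26 libraries). In groups of 4 libraries, 54 sets of values were examined for a library far from the others, and 0 were found.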

How the results depend on the processing

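Of the values given for named members under the alternatives, 2475 of 2854 kept direction and side of the threshold, 328 lost the call, 51 gained it and 0 reversed. Counts of members called moved by over 1.5 times as follows, and the causes were not tested. Where no share of all genes under a setting is given, the count cannot show whether the change is particular to the members. This also holds for the counts with 1 library left out, above and below. For genotype in CNS Tconv (12) the count was 23 with a 10 CPM filter, 36 with DESeq2, 1 with all 26 libraries, 2 with the compared groups alone and 0 without the 5 libraries with conflicting names. For tissue in icKO Treg (38) it was 11 with all 26. For tissue in Ctrl Tconv (1) it was 4, 7, 0, 0 and 7 in that same order of settings, and 6 with library totals. For tissue in icKO Tconv (71) it was 2 without the 5. For cell type in the icKO CNS (1) it was 0 with the 10 CPM filter, RLE factors, all 26, the groups alone and without the 5, and 2 with DESeq2 or library totals. For cell type in the lymph node it was 6 with all 26 and 47 with the groups alone in Ctrl (31), and 7 and 57 in icKO (27). For the CNS genotype difference (1) it was 11 with the 10 CPM filter, 49 with DESeq2 and 0 with all 26, the groups alone and without the 5. For the Ctrl tissue difference (2) it was 4 with DESeq2, 1 with RLE factors, the groups alone, summed copies and no filter, 0 with all 26 and 6 without the 5.

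With all 26 libraries the median of all genes itself moved to -0.36 for genotype in dLN Tconv, 0.22 for tissue in icKO Tconv and 0.30 for cell type in the icKO lymph node, where the members' medians were -0.12, -0.60 and -0.27. The members' medians moved by over 0.22, the SD between libraries, in 3 cases, all without the 5 libraries: tissue in icKO Tconv (-0.51), cell type in the icKO CNS (-0.38) and the CNS genotype difference (-0.56). Leaving out 1 library at a time, where a group left with 1 library is assumed to vary like the others, gave counts of 3 to 10 for genotype in CNS Tconv, 55 to 76 and 16 to 29 for tissue in Ctrl and icKO Treg, 0 to 10 and 26 to 74 in Ctrl and icKO Tconv, 72 to 81 and 0 to 2 for cell type in the Ctrl and icKO CNS, 9 to 40 and 3 to 10 in the Ctrl and icKO lymph node, 0 to 29 for the CNS genotype difference and 0 to 8 for the Ctrl tissue difference. It was 0 to 0 for genotype in CNS Treg, dLN Treg and dLN Tconv and for the Tconv genotype difference. Same-numbered libraries had deviations correlated between -0.145 and 0.113. The labels do not say whether a shared number means a shared animal, and these correlations cannot decide it. The numbers are used here only to name libraries. With the replicate block the count for genotype in CNS Tconv was 8, and all 15 counts stayed within 1.5 times. Rounded estimated counts limit members near 1 CPM, such as Rpl39l and Rpl32l.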
